A study of Mus musculus with 10 samples.

Results

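Messenger RNAs of 8 regulators of G protein signalling (RGS) were described in regulatory T (Treg) cells with and without LKB1, the protein kinase encoded by Stk11. The 8 genes, Rgs1, Rgs2, Rgs3, Rgs10, Rgs14, Rgs16, Rgs18 and Rgs19, are RGS family members of lymphocytes and were taken from 22180 genes that a probe set of the array names without ambiguity. They were chosen by a list drawn up with the wild-type (WT) against LKB1-deficient differences of these arrays already known. Their differences between the groups are therefore given as a description, without a test.

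The data were 10 single-channel arrays, 5 of WT Treg cells and 5 of LKB1-deficient Treg cells, which the sample titles call Stk11 deletion. Both groups were sorted from mouse mixed bone marrow chimeras, animals whose blood cells derive from a mixture of donor marrows, and neither was cultured after the sort. The sources used here do not give the organ sorted, the sort markers, the strain, age and sex of the animals, the way Stk11 was deleted or the cells a host still had. Separate animals are not named for the replicates, so every p-value below reflects the spread among these samples alone, and that spread may be technical. Values are log2 signals, deposited without detection calls. Replicates 1 to 3 of each group carry running codes 1 to 6 and replicates 4 and 5 carry codes 7 to 10, and the meaning of these codes is not given.

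RGS proteins end signals from G protein-coupled receptors. They bind the GTP-loaded alpha subunit and speed its hydrolysis of GTP, so that a cell with more of a given RGS protein responds more briefly or weakly to chemokines, lipids and other ligands of such receptors. The R4 subfamily (Rgs1, Rgs2, Rgs3, Rgs16 and Rgs18) consists mostly of small proteins with little beyond the RGS domain, the R12 subfamily holds Rgs10 and Rgs14, and Rgs19 belongs to the RZ subfamily. In lymphocytes several of them are induced by antigen receptor signals and limit chemokine-driven migration. The comparison asks how their transcripts differ between Treg cells with and without LKB1.

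The largest differences were of opposite sign and belonged to Rgs16, which was lower in LKB1-deficient cells, and Rgs2, which was higher. The 250 bases before the annotated start of these 2 genes are shown because they are the members whose levels the genotypes separated most widely in each direction. The windows come from RefSeq on GRCm38.p6 and read 5′ to 3′ on the gene's strand. Rgs2 lies on the minus strand (chr1:144004150-144004399) and Rgs16 on the plus strand (chr1:153740103-153740352). Capitals mark TGACG or its reverse complement CGTCA, the core of the cyclic AMP response element (CRE).
Rgs2: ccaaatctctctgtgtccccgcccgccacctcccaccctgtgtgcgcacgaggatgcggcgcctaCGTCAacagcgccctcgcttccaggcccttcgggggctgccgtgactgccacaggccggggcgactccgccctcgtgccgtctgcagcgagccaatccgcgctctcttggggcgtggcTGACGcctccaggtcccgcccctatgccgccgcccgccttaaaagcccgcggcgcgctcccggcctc
Rgs16: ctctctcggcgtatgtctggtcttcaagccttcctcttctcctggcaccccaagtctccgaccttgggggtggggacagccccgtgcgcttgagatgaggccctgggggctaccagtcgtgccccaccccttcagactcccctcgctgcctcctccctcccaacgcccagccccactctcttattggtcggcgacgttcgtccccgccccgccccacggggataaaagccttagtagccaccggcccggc
The Rgs2 window held the CRE core at 2 places, 185 to 181 and 67 to 63 bases before the start, counted from 1 at the base next to it. No match was found in the Rgs16 window, as its lack of capitals shows. Windows of this length held the core at least 1 time on either strand in 17.8% of 32851 cases, so a match is common. The share of windows with 2 matches was not counted. The full CRE palindrome TGACGTCA occurred in 1.55% of all windows, the AP-1 motif TGANTCA in 6.75% and the E-box CACGTG in 6.02%, and none of these letters occurred in the 8 windows of the 5 members with an entry (Rgs2, Rgs3, Rgs10, Rgs16 and Rgs19). The NFAT core GGAAAA, found in 20.4% of all windows, was present in 1 window of Rgs19, and TATAAA, found in 12.4%, in both windows of Rgs3. All motifs were searched on both strands. The guanine and cytosine content was 72.4% for Rgs2 and 66.4% for Rgs16, against a median of 52.4% over all windows. These matches describe letters and were not set against binding data.

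Before the genes, the arrays themselves need describing, because the LKB1-deficient arrays carried more transcripts of other cell types, arrays 1, 4 and 5 most of all. Over all probe sets the WT medians were 4.83 to 4.86 and the LKB1-deficient medians 4.88 to 4.94, and arrays correlated within their group at 0.990 to 0.993 and 0.969 to 0.989 over genes. The mean of 9 measured T cell identity genes was 11.11 to 11.14 on WT and 10.88 to 11.15 on LKB1-deficient arrays. The mean of 8 Treg identity genes, Foxp3 among them, was 10.20 to 10.28 on WT arrays and 9.22 on LKB1-deficient array 1. It was 10.08 and 10.00 on arrays 4 and 5, also below every WT array, and 10.33 and 10.35 on arrays 2 and 3. Of this list only Izumo1r passed the limma test (difference -0.70, adjusted p = 0.0209), and it was below every WT array on all 5 LKB1-deficient arrays. Foxp3, the transcription factor that defines the lineage, was at 9.86 on array 1 and at 10.95 to 11.19 on WT arrays. The mean of 17 macrophage and dendritic cell markers ranged over 6.61 to 7.02 in WT samples. It reached 9.46 and 9.58 on LKB1-deficient arrays 4 and 5, where 17 of 17 markers exceeded every WT array. On array 1 it was 7.28, and 6.72 and 6.98 on arrays 2 and 3. On arrays 1, 2 and 3, respectively, 7, 3 and 7 of the 17 markers exceeded every WT array. Vcam1, an adhesion molecule of splenic macrophages among other cells, read 10.37 and 10.41 on arrays 4 and 5 and at most 7.40 elsewhere, and Adgre1, a surface receptor of macrophages, read 9.37 and 9.36 and at most 6.46 elsewhere. B and plasma cell markers (12 measured) averaged 5.67 to 5.95 on WT arrays and 6.94, 6.71 and 6.90 on arrays 1, 4 and 5. NK cell markers (9 measured) averaged 4.81 to 4.97 against 6.05, 5.64 and 5.84, with 8, 6 and 7 of them above every WT array. Tyrobp, which is also on the macrophage list, read 10.19, 11.22 and 11.3 there and at most 8.98 on WT arrays. Klrb1c on arrays 4 and 5 (4.12 and 3.99) did not exceed its WT range. Cd79a, part of the B cell receptor, was highest on array 1 at 8.96, against 5.88 to 7.0 on WT arrays. Neutrophil markers (10 measured) averaged 4.15 to 4.56 on WT arrays and 5.29, 4.66 and 4.80 on arrays 1, 4 and 5. Among them S100a8 read 9.26 on array 1 and at most 6.45 on WT arrays. Of the 10 markers, 7 exceeded every WT array on array 1, and 4 did so on each of arrays 4 and 5. Ly6g (2.94), Camp (2.79) and Ngp (4.15) lay inside their WT ranges on array 1, so the list did not move as a whole. Of 5 measured erythroid and platelet markers, all 5 exceeded every WT array on arrays 4 and 5. Arrays 2 and 3 were not free of such signal. Their erythroid and platelet means, 5.68 and 5.83, and their means of 4 CD8 T cell markers, 5.84 and 5.78, also exceeded the WT ranges of 5.34 to 5.59 and 5.45 to 5.59, as did the NK cell mean of array 3 (5.11) and the mean of 8 mast cell and basophil markers on array 2 (3.75, WT 3.42 to 3.61). Klrd1, Gp9, Kit and Cd8a were higher on all 5 LKB1-deficient arrays than on any WT array and passed the limma test (adjusted p = 0.0170, 0.0204, 0.0108 and 0.0423). No other measured gene of the NK cell, erythroid and platelet, mast cell and basophil or CD8 T cell lists passed. Itga2b was also above every WT array on all 5, but Cd8b1 differed by only 0.08 and Cpa3 by -0.12. These 4 genes alone therefore do not show which cell types were present. Each member below is therefore also given without LKB1-deficient arrays 1, 4 and 5. That fit sets LKB1-deficient arrays 2 and 3, both of codes 1 to 6, against the WT arrays of all codes. It is therefore not balanced over the codes. In sorted bulk samples, fewer cells of a type and less RNA per cell cannot be told apart.

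Stk11, the deleted gene, read 6.61, 6.69, 6.75, 6.95 and 6.92 in the WT samples. The LKB1-deficient samples read 6.57, 6.01, 6.05, 6.71 and 6.78. LKB1-deficient arrays 2 and 3 were the lowest, at 6.01 and 6.05. Arrays 4 and 5 lay inside the WT range, and array 1 at 6.57 was just below the lowest WT value of 6.61. Arrays 1, 4 and 5 also had the highest B and plasma cell, NK cell, macrophage and neutrophil list means. The part of other cells in the Stk11 values was not tested. The groups overlapped, and their difference (-0.36, SE 0.16) missed the threshold of the limma fit over all genes (adjusted p = 0.335). No source used here says whether its probe set covers the deleted part, so it may not check the labels. Throughout, LKB1-deficient means labelled so.

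**Figure D1:**
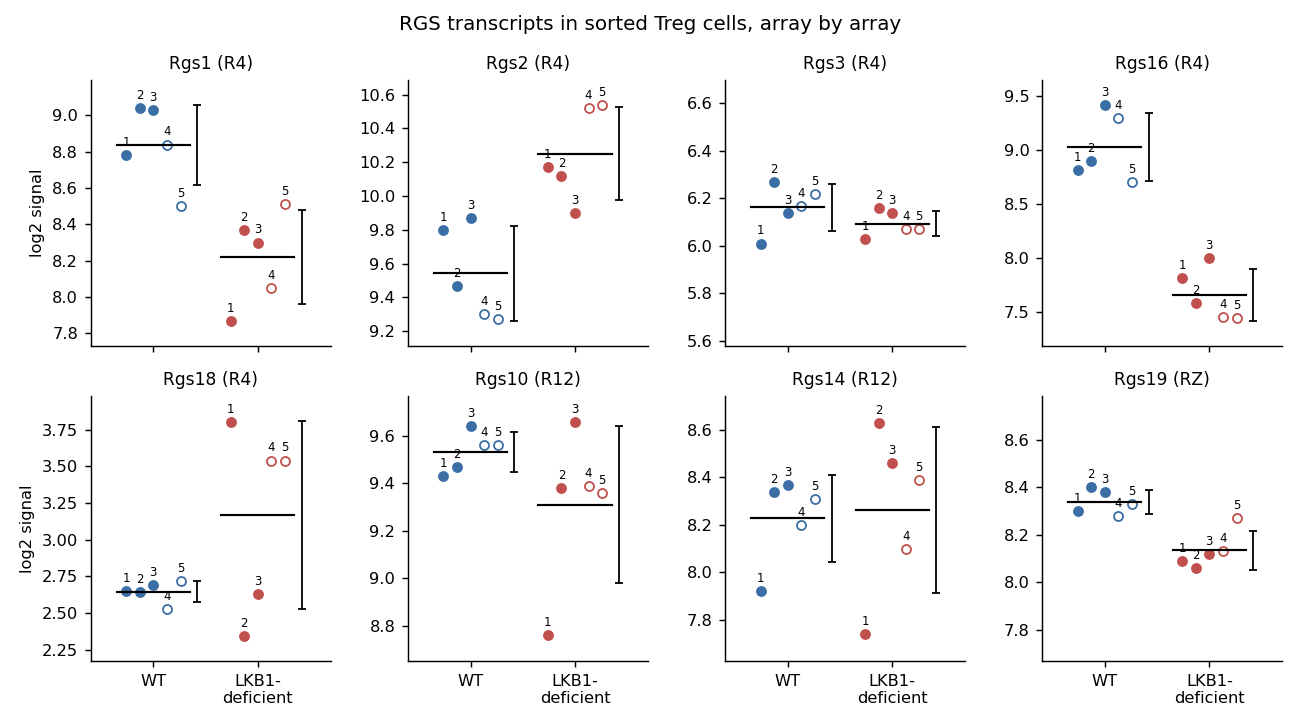
Each panel plots 1 RGS gene, with the log2 signal of every array on the vertical axis and the 2 genotypes side by side; numbers are replicates, filled points are replicates 1 to 3, open points replicates 4 and 5, lines are group means and bars 1 SD (n = 5). WT and LKB1-deficient points do not overlap for Rgs2, Rgs16 and Rgs19, and the LKB1-deficient points of Rgs18, Rgs10 and Rgs14 spread more widely than the WT points.

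Rgs16 showed the largest difference of the 8 genes. It encodes an R4 protein that acts on Gi and Gq alpha subunits and that T cells induce on activation. Its probe set (17218321, Entrez gene 19734) read 8.82, 8.90, 9.42, 9.30 and 8.71 on WT arrays 1 to 5 and 7.82, 7.59, 8.0, 7.46 and 7.45 on LKB1-deficient arrays 1 to 5. Every LKB1-deficient array lay below every WT array, with the highest at 8.0 and the lowest WT array at 8.71. The means were 9.03 ± 0.31 (SD, n = 5) and 7.66 ± 0.24 (SD, n = 5), a difference of -1.36 (SE 0.16), or 2.57-fold lower. Without LKB1-deficient arrays 1, 4 and 5 the difference was -1.23 (SE 0.20). It was -1.24 (SE 0.19) within codes 1 to 6 and -1.55 (SE 0.21) within codes 7 to 10. Rgs14 is an older synonym of Rgs16 in RefSeq. The gene now called Rgs14 is a separate member, matched here by its own Entrez identifier, and its values are given further on.

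Rgs2 was the member with the largest positive difference. It encodes an R4 protein that acts preferentially on Gq alpha subunits and also dampens adenylyl cyclase. Its probe set (17548932, Entrez gene 19735) read 9.80, 9.47, 9.87, 9.30 and 9.27 on WT arrays 1 to 5 and 10.17, 10.12, 9.90, 10.52 and 10.54 on LKB1-deficient arrays 1 to 5. Every LKB1-deficient array was higher than every WT array, although LKB1-deficient array 3 at 9.90 was close to WT array 3 at 9.87. The means of 9.54 ± 0.28 (SD, n = 5) and 10.25 ± 0.28 (SD, n = 5) differed by 0.71 (SE 0.16), a 1.63-fold higher level.

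The size of the Rgs2 difference depended on which arrays were compared. Within codes 1 to 6 it was 0.35 (SE 0.15), and within codes 7 to 10 it was 1.24 (SE 0.13). The LKB1-deficient arrays of codes 7 to 10 are arrays 4 and 5, on which the macrophage list was raised, and WT arrays 4 and 5 had the lowest Rgs2 of their group. Without LKB1-deficient arrays 1, 4 and 5 the difference was 0.47 (SE 0.18), and with covariates for the macrophage and B cell lists it was 0.47 (SE 0.16). The fit without those arrays still held the low WT arrays 4 and 5, so it also carries any difference between the code series. A second probe set of Rgs2 (17227764) read 9.25, 9.27, 9.44, 9.34 and 9.08 on WT arrays, against 9.57, 9.98, 9.62, 10.05 and 9.96 on LKB1-deficient arrays. Its groups did not overlap either, and its difference was 0.56 (SE 0.12).

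Rgs1, a close relative that restrains chemokine-driven migration of B and T lymphocytes, was lower. On WT arrays 1 to 5 its probe set (17227780, Entrez gene 50778) gave 8.78, 9.04, 9.03, 8.84 and 8.5, and on LKB1-deficient arrays 1 to 5 it gave 7.87, 8.37, 8.30, 8.05 and 8.51. LKB1-deficient arrays 1 to 4 were below the whole WT range, and array 5 sat at its lower edge, so the groups overlapped by 1 array. The means of 8.84 ± 0.22 (SD, n = 5) and 8.22 ± 0.25 (SD, n = 5) differed by -0.61 (SE 0.14), or 1.53-fold. Within codes 1 to 6 the difference was -0.77 (SE 0.17), within codes 7 to 10 it was -0.39 (SE 0.21), and with LKB1-deficient arrays 1, 4 and 5 left out it was -0.50 (SE 0.15).

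Rgs3, an R4 gene with several long and short protein forms, showed little difference. Its probe set (17414600, Entrez gene 50780) read 6.01, 6.27, 6.14, 6.17 and 6.22 on WT arrays, against 6.03, 6.16, 6.14, 6.07 and 6.07 on LKB1-deficient arrays. All LKB1-deficient values fell inside the WT range. The means were 6.16 ± 0.10 and 6.09 ± 0.05 (SD, n = 5 each), and the difference of -0.07 was smaller than its SE of 0.08. Without LKB1-deficient arrays 1, 4 and 5 it was -0.01 (SE 0.11).

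Rgs18 is best known from platelets and their precursors, where it acts on Gi and Gq signals. Its probe set (17227797, Entrez gene 64214) read 2.65, 2.64, 2.69, 2.53 and 2.72 on WT arrays, below the lower quartile of 3.53 to 3.65 that the arrays showed over all probe sets. On LKB1-deficient arrays 1 to 5 it read 3.80, 2.34, 2.63, 3.54 and 3.54. Arrays 1, 4 and 5 were high and arrays 2 and 3 were not. The high arrays were those with the highest B and plasma cell, NK cell, macrophage and neutrophil list means. Array 1 had the highest Rgs18, but its macrophage mean (7.28) was far below those of arrays 4 and 5 (9.46 and 9.58). The means of 2.64 ± 0.07 and 3.17 ± 0.64 (SD, n = 5 each) differed by 0.53 (SE 0.24). Without arrays 1, 4 and 5 the difference was -0.16 (SE 0.11), and with covariates for the macrophage and B cell lists it was -0.10 (SE 0.13), so the positive sign rested on those arrays. Of the 4 measured platelet genes, Ppbp read 8.97 and 8.89 on arrays 4 and 5 and Pf4 read 6.68 and 6.44 there, both above every WT array. On array 1, where Rgs18 was highest, Gp9 (6.55), Ppbp (6.63) and Itga2b (5.79) were above every WT array and Pf4 (4.75) was below every WT array. The part of platelets in the Rgs18 values was not tested.

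The R12 genes differed less between genotypes than between arrays of one genotype. Rgs10, a small protein selective for Gi alpha subunits and abundant in immune cells, read 9.43, 9.47, 9.64, 9.56 and 9.56 on WT arrays (probe set 17496887, Entrez gene 67865). The LKB1-deficient arrays gave 8.76, 9.38, 9.66, 9.39 and 9.36. Array 1 was far below the rest, array 3 was the highest of all 10, and the other LKB1-deficient arrays lay just under the WT range. The difference between 9.53 ± 0.08 and 9.31 ± 0.33 (SD, n = 5 each) was -0.22 (SE 0.14). It was -0.085 without LKB1-deficient array 1, the array with the lowest Treg identity mean, and -0.0099 without arrays 1, 4 and 5.

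Rgs14, a scaffold that joins an RGS domain to a second Gi-binding motif and to Ras-binding domains, did not separate the genotypes. It read 7.92, 8.34, 8.37, 8.2 and 8.31 on WT arrays, against 7.74, 8.63, 8.46, 8.10 and 8.39 on LKB1-deficient arrays (probe set 17287650, Entrez gene 51791). The first array of each group was the lowest of that group, and LKB1-deficient values lay on both sides of the WT range. Means of 8.23 ± 0.18 and 8.26 ± 0.35 (SD, n = 5 each) differed by 0.04 (SE 0.16). The sign was not stable: the difference was -0.02 after subtraction of array medians and 0.32 (SE 0.14) without LKB1-deficient arrays 1, 4 and 5.

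Rgs19, an RZ protein that acts on Gi alpha subunits at membranes, had a small difference with little spread. Its probe set (17395933, Entrez gene 56470) read 8.30, 8.40, 8.38, 8.28 and 8.33 on WT arrays, against 8.09, 8.06, 8.12, 8.13 and 8.27 on LKB1-deficient arrays. The groups did not overlap, but only just, since LKB1-deficient array 5 at 8.27 was next to WT array 4 at 8.28. Means of 8.34 ± 0.05 and 8.13 ± 0.08 (SD, n = 5 each) differed by -0.21 (SE 0.08). The difference was -0.27 (SE 0.12) within codes 1 to 6, -0.11 (SE 0.14) within codes 7 to 10 and -0.25 (SE 0.10) without LKB1-deficient arrays 1, 4 and 5.

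**Figure D2:**
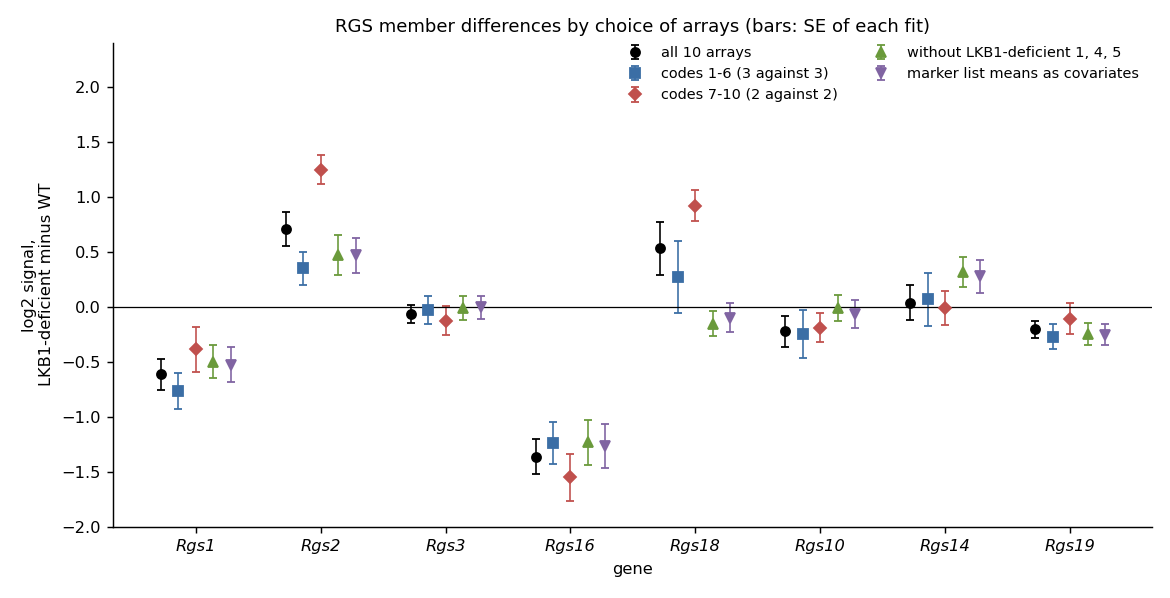
The vertical axis is the LKB1-deficient minus WT difference in log2 signal and the horizontal axis the 8 RGS genes; symbols are fits to all arrays, to codes 1 to 6, to codes 7 to 10, without LKB1-deficient arrays 1, 4 and 5, and with marker list means as covariates, and bars are the SE of each fit. Rgs16 stays between -1.55 and -1.23 in these fits, Rgs2 ranges from 0.35 to 1.24, and Rgs18 goes from 0.92 to -0.16.

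Among the 8 genes, 5 differences were negative and 3 positive, with a median of -0.14 beside 0.0034 over all genes, of which 49.2% were negative. At an adjusted p under 0.05 over all 22180 genes the limma fit called 0.234% of genes higher and 0.83% lower. By that rule 0 members counted as higher and 1, Rgs16, as lower. Groups without overlap occurred in 0.996% of genes with the LKB1-deficient arrays above and in 3.71% with them below. Rgs2 was the 1 member of the first kind, and Rgs16 and Rgs19 were the 2 of the second. Because the list was selected on this same contrast, nothing is read from these counts.

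The spread within a group also differed from gene to gene. The SD of the LKB1-deficient arrays divided by that of the WT arrays was 8.76 for Rgs18, 4.04 for Rgs10, 1.92 for Rgs14, 1.57 for Rgs19 and 1.15 for Rgs1. It was 0.99 for Rgs2, 0.77 for Rgs16 and 0.54 for Rgs3. The members with the widest differences between genotypes, Rgs16, Rgs2 and Rgs1, thus had about the same spread in both groups.

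**Figure D3:**
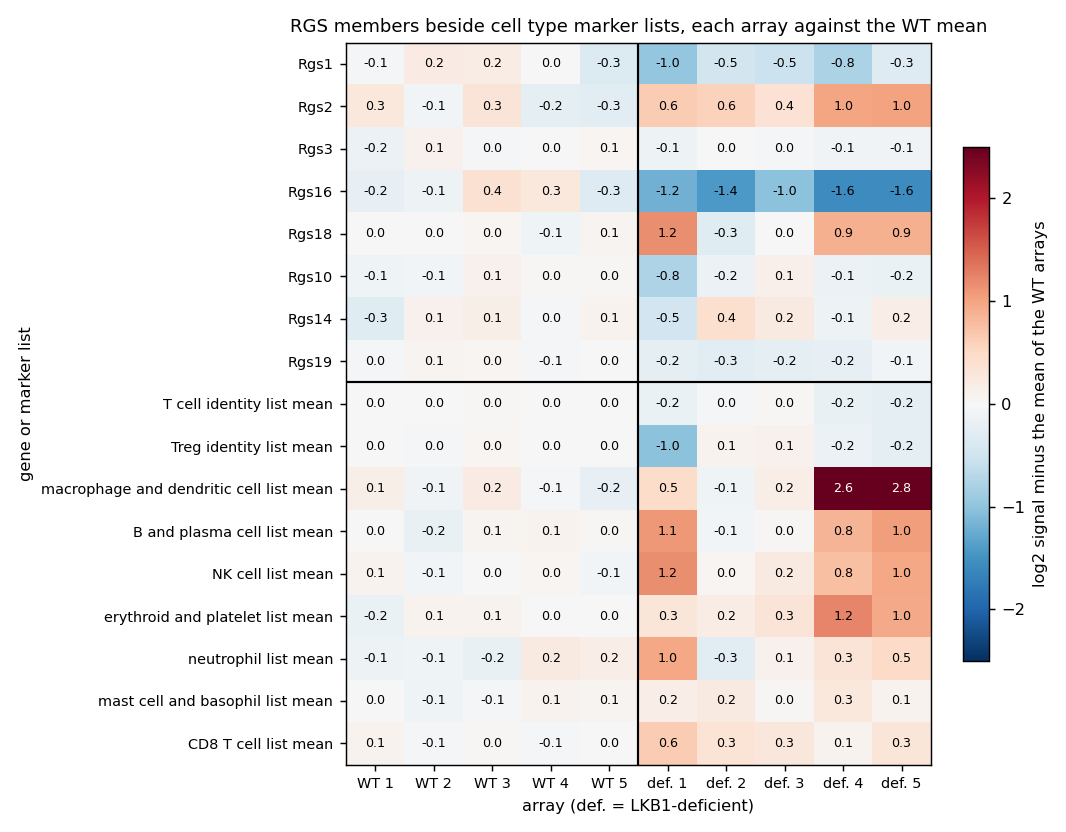
Rows are the 8 RGS genes and the means of 9 cell type marker lists, columns are the 10 arrays, and each cell gives the log2 signal minus the mean of the WT arrays, in colour and as a number; colours saturate at 2.5 in either direction. The macrophage list is raised by 2.6 and 2.8 on LKB1-deficient (def.) arrays 4 and 5, Rgs18 follows arrays 1, 4 and 5, and Rgs16 is low on all 5.

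Marker lists and members were set side by side on the LKB1-deficient arrays. For Rgs18, and for Rgs2 on probe set 17548932, the 3 arrays with the highest LKB1-deficient values were arrays 1, 4 and 5. For Rgs2 array 1 led array 2 only narrowly, at 10.17 against 10.12. On the second Rgs2 probe set array 1 was the lowest LKB1-deficient array at 9.57, and array 2 (9.98) exceeded array 5 (9.96). Arrays 1, 4 and 5 also had the highest B and plasma cell, NK cell, macrophage and neutrophil list means. The macrophage mean of array 1 (7.28) was far below those of arrays 4 and 5 (9.46 and 9.58). Rgs16 was lowest on arrays 4 and 5 at 7.46 and 7.45, but array 2, on which the macrophage, B and plasma cell and NK cell lists lay within the WT range, read 7.59. On that array the CD8 T cell (5.84), erythroid and platelet (5.68) and mast cell lists (3.75) exceeded it. For Rgs10 and Rgs14 array 1 was lowest, the array with the lowest Treg identity mean. The part of other cells in the Rgs10 and Rgs14 values was not tested.

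How the members varied from array to array was followed after removing each gene's group means, over the 10 arrays, as a description. Rgs10 and Rgs14 varied together at r = 0.77, Rgs3 and Rgs14 at 0.71, and Rgs14 and Rgs18 in opposite directions at -0.73. Rgs16 stood alone, with correlations between -0.22 and 0.19 to the other 7. The arrays share their outlying samples, so that a few arrays can set such values. The genes most like each member by the same measure were Pigg (0.928), Cnfn (0.904) and Alkal2 (0.902) for Rgs16. For Rgs2 they were Ppp1r26 (0.933), Zfp532 (0.926) and Fabp5 (0.915), and for Rgs1 they were Mre11a (0.924), Mcm5 (0.905) and Stam (0.903). The pattern of Rgs3 was nearest to Clcn2 (0.955), Sik1 (0.925) and Pdzd9 (0.917), and that of Rgs19 to Zfp551 (0.931), G3bp2 (0.923) and Olfr90 (0.923). Rgs10 lay closest to Prkch (0.986), Septin9 (0.976) and H2-K1 (0.969), and Rgs14 to Ankrd52 (0.969), Paxbp1 (0.967) and Mtmr9 (0.967). Rgs18 was most like Cd180 (0.988), a surface protein of B cells and myeloid cells, Il7r (0.97), the interleukin 7 receptor chain, and the mitochondrial gene ND3 (0.969). With 22180 genes and 10 arrays, each of the 8 members had such close matches.

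Several members are neighbours in the genome. In the RefSeq order of protein-coding genes on chromosome 1, Uchl5 is followed by Rgs2, Rgs13, Rgs1, Rgs21, Rgs18 and Brinp3, and Rgs16 lies elsewhere on the chromosome beside Rgs8. Rgs2 was higher by 0.71, Rgs13 differed by 0.16 (SE 0.12) and Rgs1 by -0.61. Rgs21, between Rgs1 and Rgs18, differed by -0.04 (SE 0.11), and Rgs8, beside Rgs16, by -0.03 (SE 0.13). Rgs8, Rgs13 and Rgs21 did not pass the limma test. The WT means of Rgs13 (2.79) and Rgs21 (3.14) were below the arrays' lower quartile of 3.53 to 3.65. At such low signals a difference may not show. Rgs3 lies on chromosome 4, Rgs10 on 7, Rgs14 on 13 and Rgs19 on 2.

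**Figure D4:**
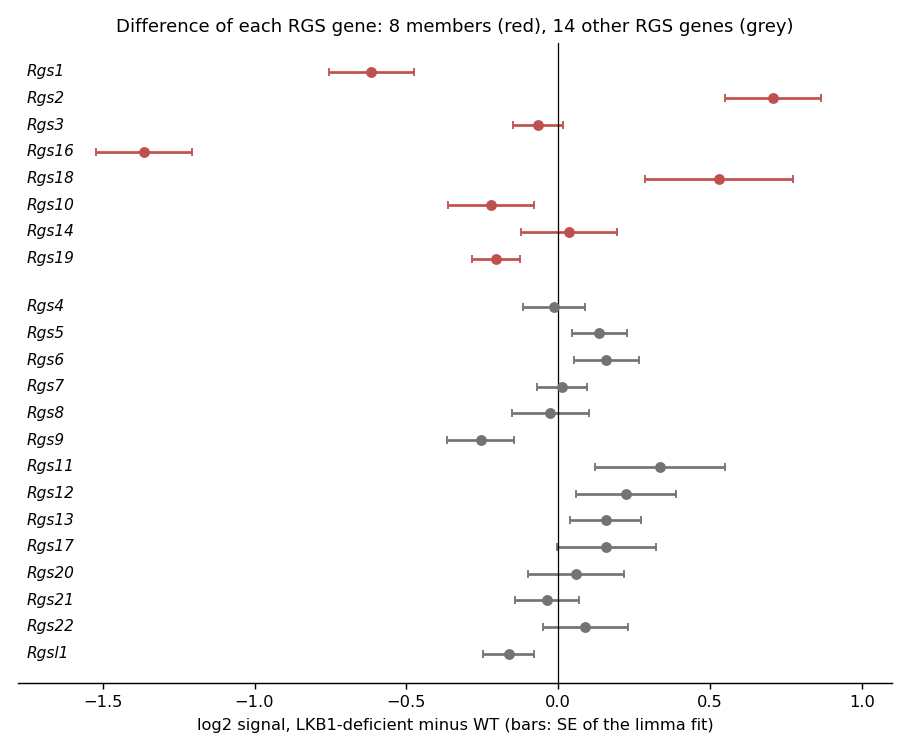
The horizontal axis is the LKB1-deficient minus WT difference in log2 signal with the SE of the limma fit, and each row is 1 RGS gene, the 8 members in red and 14 other RGS genes in grey. Rgs16, Rgs1, Rgs2 and Rgs18 lie farther from 0 than any of the other 14, whose differences run from -0.26 to 0.33.

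The rest of the RGS family showed no called change. Of 14 further RGS genes (Rgs4, Rgs5, Rgs6, Rgs7, Rgs8, Rgs9, Rgs11, Rgs12, Rgs13, Rgs17, Rgs20, Rgs21, Rgs22 and Rgsl1), all were measured, 0 passed the limma test higher and 0 lower, and the lowest adjusted p was 0.318. Over all genes 3103 had an unadjusted p under 0.05. The median difference of the 14 further RGS genes was 0.07, with 9 positive and 5 negative. Rgs9, known from photoreceptors and striatal neurons, had the most negative difference at -0.26 (SE 0.11), and Rgs11 the most positive at 0.33 (SE 0.21). For Rgs11 this rested on LKB1-deficient array 1, which read 6.52 while the other LKB1-deficient arrays read 5.18 to 5.46 and the WT arrays 5.08 to 5.36. Rgs12, the largest R12 protein, differed by 0.22 (SE 0.17).

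The wider pathway in which RGS proteins act was described from 8 lists, the 14 further RGS genes included. Of 163 entries 143 were measured, 2 passed the limma test as higher, 4 as lower and 137 did not pass. Over all 22180 genes 0.234% were called higher and 0.83% lower. The lists were drawn up with results of these arrays known, so nothing particular to them is read from the counts. The median difference was 0.0025, near that of all genes, with 72 positive and 71 negative values. These counts move with single arrays. Leaving out LKB1-deficient array 1 gave 5 higher and 6 lower, and leaving out WT array 4 gave 0 and 0. Without WT arrays 1, 2, 3 or 5 they were 0 and 1, 0 and 2, 1 and 0, and 0 and 1. Without LKB1-deficient arrays 2, 3, 4 or 5 they were 1 and 3, 1 and 1, 1 and 2, and 1 and 5.

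**Figure D5:**
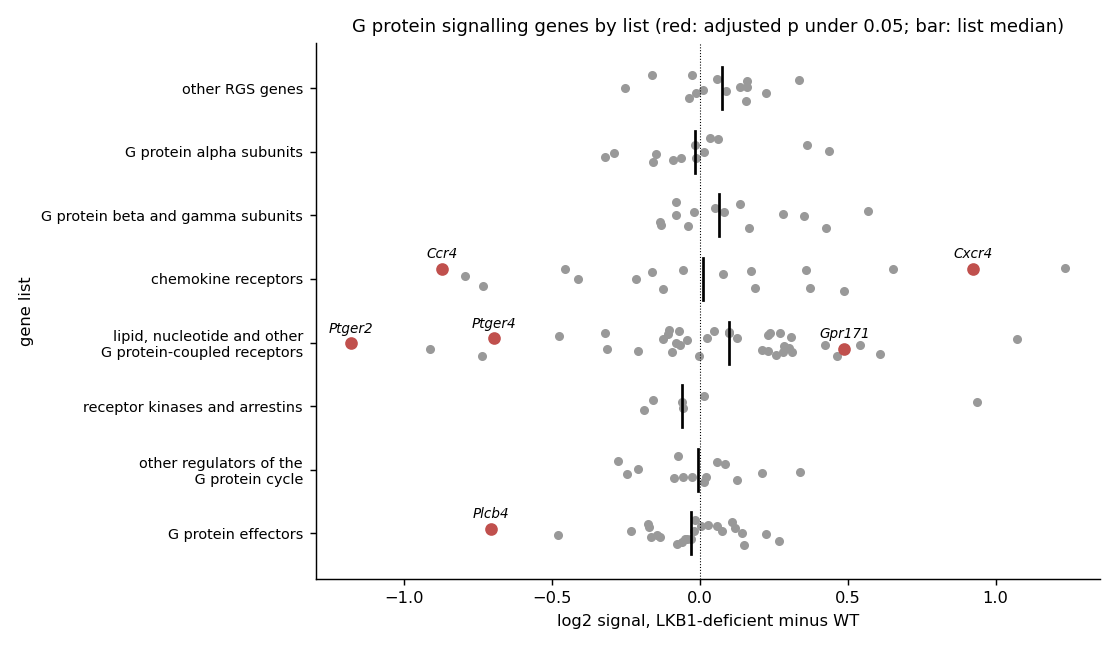
Each point is a measured gene of 8 G protein signalling lists (rows), placed by its LKB1-deficient minus WT difference in log2 signal; red points have a limma adjusted p under 0.05 and black bars mark list medians. The 6 called genes are 5 receptors and the phospholipase Plcb4, and list medians lie between -0.06 and 0.10.

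Of the 6 called genes 5 were receptors, which made up 18 (chemokine) and 39 (other) of the 143 measured genes. Cxcr4, the receptor for the chemokine CXCL12, which signals through Gi, rose. It read 8.25, 8.17, 8.59, 8.51 and 8.34 on WT arrays, against 9.0, 9.07, 9.07, 9.70 and 9.64 on LKB1-deficient arrays, with no overlap. The difference was 0.93 (SE 0.16, limma adjusted p = 0.0192), and the adjusted p reached 0.0651 with an array left out, on whose removal the call was lost for 4 of 10 arrays (WT arrays 1, 2, 4 and 5). Ccr4, which guides T cells to skin and inflamed tissue, fell by 0.87 (SE 0.17, adjusted p = 0.0342), from 6.44 to 7.30 on WT arrays to 5.70 to 6.38 on LKB1-deficient arrays. The other chemokine receptors among 18 measured did not pass, among them Ccr7 at 0.37 (adjusted p = 0.107) and Cxcr5 at -0.80 (adjusted p = 0.128).

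Both prostaglandin E2 receptors that raise cyclic AMP through Gs fell. Ptger2 read 7.08, 7.17, 7.5, 7.48 and 7.13 on WT arrays, against 5.24, 6.24, 6.42, 6.55 and 6.01 on LKB1-deficient arrays, a difference of -1.18 (SE 0.21, limma adjusted p = 0.0247). Ptger4 read 8.77, 8.93, 9.18, 9.06 and 8.80 against 8.08, 8.62, 8.12, 8.16 and 8.27, a difference of -0.70 (SE 0.12, adjusted p = 0.0235). Neither gene's groups overlapped. Gpr171, a receptor expressed by T cells, rose by 0.49 (SE 0.10, adjusted p = 0.0423), from 8.74 to 9.19 on WT arrays to 9.38 to 9.58. Gpr15, a homing receptor for the large intestine, differed by -0.91 (SE 0.20) and did not pass (adjusted p = 0.05), nor did Gpr174, a lysophosphatidylserine receptor, at -0.31 (adjusted p = 0.0793). Calls of these receptors were lost with arrays left out: Ccr4 kept its call in 3 of 10 such fits, Ptger2 and Ptger4 in 5 each and Gpr171 in 1. The largest adjusted p in them was 0.0995 for Ccr4, 0.0828 for Ptger2, 0.0823 for Ptger4 and 0.104 for Gpr171. Without LKB1-deficient arrays 1, 4 and 5, and with covariates for the macrophage and B cell lists, Ptger4 (limma adjusted p = 0.127 and 0.0945) and Gpr171 (0.109 and 0.097) did not pass. Cxcr4 (0.0322 and 0.0280), Ccr4 (0.0466 and 0.0208) and Ptger2 (0.0150 and 0.0192) passed in both fits.

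The alpha subunits, which include the Gi and Gq forms named above and other classes, gave 0 calls among 13 measured genes. Their median difference was -0.02 and the lowest limma adjusted p was 0.186. Gnai2, the Gi subunit of most lymphocyte chemokine signals, read 10.18 to 10.37 on WT arrays and 10.12 to 10.39 on LKB1-deficient arrays. Gna13 differed by -0.29 (adjusted p = 0.186), and Gnal by 0.44 (adjusted p = 0.292). Among 14 beta and gamma subunits there were 0 calls, and the smallest p values belonged to Gngt2 at 0.57 (adjusted p = 0.194) and Gng11 at 0.35 (adjusted p = 0.239). Gngt2 was highest on LKB1-deficient arrays 4 and 5, at 8.25 and 8.49 against 7.18 to 7.45 on WT arrays, the arrays with the raised macrophage list. Its value without them was not tested.

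Downstream and parallel regulators were called in 1 case. Plcb4, a phospholipase C that Gq alpha subunits activate, read 5.74, 5.37, 5.62, 5.64 and 5.43 on WT arrays, against 4.47, 4.94, 4.71, 5.15 and 5.00 on LKB1-deficient arrays. It fell by 0.71 (SE 0.13, limma adjusted p = 0.0293). That call was kept in 4 of 10 fits with an array left out, with adjusted p-values up to 0.0907. The other effectors among 25 measured did not pass, including Arhgef12 at -0.48 (adjusted p = 0.109) and Rac2 at -0.18 (adjusted p = 0.376). The 6 measured receptor kinases and arrestins gave 0 calls. Grk3 was highest on LKB1-deficient arrays 4 and 5, at 6.4 and 7.29, with at most 5.45 on the other arrays (difference 0.94, adjusted p = 0.431), and Arrb1 differed by -0.19 (adjusted p = 0.527). Among 14 other regulators of the G protein cycle there were 0 calls, with Snx13 at 0.34 (adjusted p = 0.293) and Snx14 at -0.25 (adjusted p = 0.367).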

How the data were processed

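Total RNA of 10 sorted Treg cell samples was amplified, biotin-labelled and hybridised to single-channel arrays of 41345 probe sets, per the labels' protocols. The deposited table holds log2 signals. RMA, which equalises array distributions, and Partek 6.6 are named in the submitters' processing notes, and the sources used here give neither their order nor their settings. Amplification from little RNA can distort levels, and a shift common to all transcripts cannot be seen.

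Of the probe sets, 23521 named 1 gene symbol in the platform annotation, 1814 several and 16010 none. Each gene was represented by its singly named probe set with the highest mean over the 10 arrays, which left 22180 genes. All 8 members matched the RefSeq table of GRCm38.p6 by Entrez identifier and symbol, and it was used for names and gene order. No pair of arrays was identical.

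Groups and replicate numbers came from the sample titles. LKB1-deficient and WT arrays were compared with the lmFit and eBayes functions of limma 3.58.1 under R 4.3.3 (4.36 prior degrees of freedom), with Benjamini-Hochberg adjustment over 22180 genes and a threshold of 0.05. Adjusted p-values come from this fit unless another is named, and a difference is LKB1-deficient minus WT with the SE of the fit. The code was tested on simulated data. Precision is limited by the number of arrays. The members and all lists were chosen with earlier results of these data known. Genes named were the 8 members, the further RGS genes, per list up to 6 genes past the threshold and 2 not past it by smallest p, the 3 genes most correlated with each member (passing over clone names, predicted names and antigen receptor segments), up to 3 variable genes per marker list, and Stk11. Gnai2, Klrd1, Izumo1r, Cd8b1, Cpa3 and Itga2b were named after their values were seen. The labels do not say whether samples with the same replicate number pair, so the main fit used no block. Alternatives covered the probe set, a filter removing the dimmest 40% of genes, normalization, the variance model, array weights, blocks, covariates and arrays left out.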

Additional observations from a re-analysis of the deposited data

Results flagged for a closer look

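Among 86 combinations of gene and genotype (the 8 members, the 14 further RGS genes, Stk11 and the other genes named from the lists), 3 had an array whose distance to its nearest neighbour took up more of the group's range than Dixon's critical value of 0.71 for 5 samples allows. Chance flags about 1 in 20 groups. None of the 3 concerned a member. Rgs11 read 6.52 on LKB1-deficient array 1, above the next array at 5.46 (gap of 0.791 of the range). Rgs21, the neighbour of Rgs1 and Rgs18, read 2.84 on WT array 5, below the next at 3.17 (0.762). Arrb1, an arrestin that ends receptor signalling, read 7.07 on LKB1-deficient array 1, below the next at 7.52 (0.718).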

How the results depend on the processing

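Over 23 alternative settings the 8 members gave 176 values, of which 169 kept their sign and 4 moved by more than the spread between replicates. These were Rgs2 within codes 1 to 6 (0.35) and within codes 7 to 10 (1.24), Rgs19 within codes 7 to 10 (-0.11) and Rgs18 without LKB1-deficient arrays 1, 4 and 5 (-0.16). Rgs16 ranged from -1.55 to -1.23 over all of them and Rgs1 from -0.77 to -0.39. The count of genes called higher (52 with all arrays) was 17 without moderation of the variances, 135 with array weights, 135 with covariates for the macrophage and B cell lists, 154 without LKB1-deficient arrays 1, 4 and 5, 0 within codes 1 to 6 and 423 within codes 7 to 10. Genes called lower (184) numbered 284 after removal of the dimmest 40% of genes, 363 after subtraction of array medians, 329 with array weights, 0 within codes 1 to 6 and 46 within codes 7 to 10. In codes 1 to 6 limma gave 2247 genes with an unadjusted p under 0.05. Called genes of the G protein lists, 2 higher and 4 lower with all arrays, became 0 and 1 without moderation, 1 and 8 with the covariates, 0 and 0 within codes 1 to 6, and 7 and 0 within codes 7 to 10. Lower calls were 7 with array weights and 6 after subtraction of array medians or without LKB1-deficient arrays 1, 4 and 5. With 1 array left out in turn, genes called higher numbered 8 to 180 and lower 30 to 340, and list genes 0 to 5 and 0 to 6. The lowest of the gene counts came without WT array 4 and the highest without LKB1-deficient array 1. The replicate block gave 14 genes higher and 36 lower, and 1 and 1 in the lists. Samples with the same number correlated in their deviations at 0.0312, 0.102, -0.0717, -0.00298 and -0.0788. A few outlying arrays can set such values, so they do not decide whether these samples pair. The causes of these shifts were not tested. After the dimmest genes were removed, Rgs18 had no value. Without detection calls, the low signals of Rgs18 and several further RGS genes cannot be told from background.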
